A study of Mus musculus with 39 samples.

Results

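Kupffer cell marker genes were followed in the livers of 39 male C57BL/6J mice. The genes are Cd68, Clec4f, Marco, Vsig4, Cd5l, Timd4, Cd163, Csf1r, Lyz2 and Mrc1, and a probe belonged to one of them when its RefSeq accession did. Of the 10 genes, 9 had a probe among the 17016 genes with a symbol, with 12 probes of 25903, while no probe was matched to Cd68, which is not analysed here. Csf1r had 3 probes, Lyz2 had 2 and the others had 1, and the brightest probe on average stands for the gene unless another is named. The mice were 5 to 6 weeks old on arrival and singly housed. AggE mice spent 6 hrs a day for 5 or 10 days inside the cage of an SJL aggressor, with up to 3 brief physical contacts, and Ctrl mice went through the same schedule without an aggressor. Mice met the cue of the aggressor across a partition 1 hr before tissue collection, and the methods do not say separately whether Ctrl mice did. The group labelled 24 hrs post-5-day stressor had 4 Ctrl and 5 AggE mice. The counts were 4 and 5 for 24 hrs post-10-day stressor, 4 and 5 for 1.5 wks post-5-day stressor, and 6 and 6 for 4 wks post-10-day stressor, and the groups are written here as 24 hrs after 5 days and so on. Some labels name another regimen. It is 1 day for the AggE mice at 24 hrs after 5 days, and 10 days for the AggE mice and 1 Ctrl mouse at 1.5 wks. The title of that Ctrl mouse, mouse 4, starts with HC, where those of the other Ctrl mice start with C. The grouping followed the source field of the labels. Each liver RNA (Cy5) was hybridized to 1 array together with a reference RNA pool (Cy3), without a dye swap, and levels are log2 ratios of Cy5 to Cy3, so that a level compares a gene between mice and not with another gene.

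Kupffer cells are the macrophages that live in the liver sinusoids, where they take up bacteria, dying cells and aged erythrocytes from portal blood. Most are seeded before birth and renew themselves locally under signals through the CSF1 receptor, and circulating monocytes can replace them after loss. They carry C-type lectins, scavenger receptors and complement receptors, and their identity depends on transcription factors such as PU.1, ID3, SPIC and the liver X receptor. Whole liver RNA is mostly that of hepatocytes, so fewer Kupffer cells and less RNA per Kupffer cell cannot be told apart in these data. Clec4f is the marker most restricted to mouse Kupffer cells, Cd5l and Marco are shared with other resident macrophages, and Lyz2, Csf1r and Mrc1 are also transcribed by monocytes, neutrophils or sinusoidal endothelium.

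Promoter sequences are shown for the 3 members whose differences between AggE and Ctrl mice were the largest. They are the 250 bases before the RefSeq transcription start, 5′ to 3′ on the gene's strand, build GRCm38.p6, at chr6:83656117-83656366 (minus strand) for Clec4f, chr3:87357631-87357880 (plus strand) for Cd5l and chr1:120505025-120505274 (minus strand) for Marco. Capitals mark matches on either strand to GAGGAA, the core bound by PU.1.
Clec4f: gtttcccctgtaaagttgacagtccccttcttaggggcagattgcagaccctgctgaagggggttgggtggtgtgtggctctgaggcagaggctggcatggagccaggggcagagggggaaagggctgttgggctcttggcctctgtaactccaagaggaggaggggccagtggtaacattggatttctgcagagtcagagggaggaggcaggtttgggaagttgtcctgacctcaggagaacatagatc
Cd5l: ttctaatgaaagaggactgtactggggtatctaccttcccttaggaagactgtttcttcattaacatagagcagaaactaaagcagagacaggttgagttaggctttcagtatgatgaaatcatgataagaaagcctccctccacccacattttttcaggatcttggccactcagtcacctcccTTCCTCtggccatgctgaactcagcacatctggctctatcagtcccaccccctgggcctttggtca
Marco: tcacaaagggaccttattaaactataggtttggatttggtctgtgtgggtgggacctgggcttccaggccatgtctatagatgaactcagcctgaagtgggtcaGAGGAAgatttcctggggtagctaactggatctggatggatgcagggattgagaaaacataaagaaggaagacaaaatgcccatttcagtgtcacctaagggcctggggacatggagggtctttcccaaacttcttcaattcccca
GAGGAA was found once or more in 23.3% of 32851 mouse promoter windows of this length. The Cd5l and Marco windows held 1 match each, that of Cd5l nearer to the start, and the Clec4f window held none. Of the 9 listed genes whose window was read, Cd68 included, 5 held GAGGAA. A match describes letters only, and these arrays did not measure binding.

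The arrays differed in sensitivity, with 14.8% to 70.1% of all probes well above background in Cy5 by the mark of the scanner software, and lay on 11 slides, numbered here 1 to 11. At 24 hrs the Ctrl and AggE mice shared no slide, so slide and group cannot be told apart there, whereas slide 7 held 3 Ctrl and 1 AggE mice of 1.5 wks and slide 9 held 3 Ctrl and 1 AggE mice of 4 wks. All 8 measured hepatocyte markers were well above background on 39 arrays, as the liver label requires. Among the members, Clec4f, Marco, Cd5l and Lyz2 were well above background in Cy5 on 39 arrays, Cd163 on 37, Csf1r on 36, Vsig4 and Mrc1 on 31 each and Timd4 on 11. The reference RNA held little of most members, since Cy3 was well above background on 19 arrays for Clec4f, 22 for Cd5l, 27 for Marco, 2 for Cd163, 2 for Mrc1 and 0 for Vsig4. Differences from Cy5 alone are therefore also given where they change a call of a member.

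**Figure D1:**
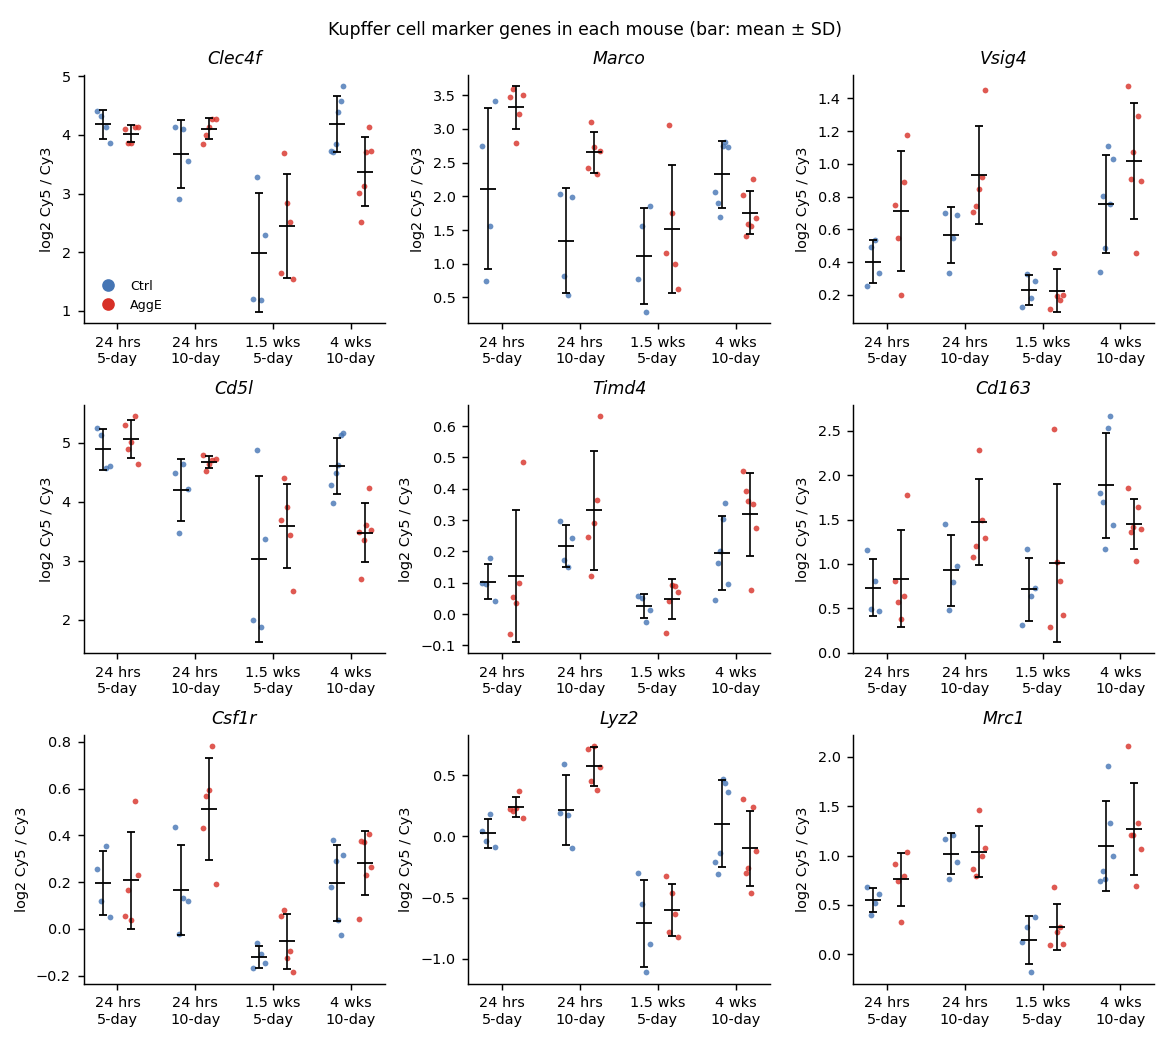
Log2 ratio of liver Cy5 to reference Cy3 (y axis) of the 9 measured marker genes in each mouse, by time point and regimen (x axis), with Ctrl in blue and AggE in red; each point is 1 mouse, and the bar is the mean ± SD of the group (n = 4 to 6). All genes but Cd5l and Cd163 had their lowest group means at 1.5 wks in both Ctrl and AggE mice. Marco lay higher in every AggE than in every Ctrl mouse at 24 hrs after 10 days.

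Clec4f, the C-type lectin that binds desialylated glycans, had its highest mean levels in Ctrl mice at 24 hrs after 5 days, at 4.18 ± 0.24 (SD, n = 4), and at 4 wks, at 4.18 ± 0.48 (SD, n = 6), followed by 3.67 ± 0.58 (SD, n = 4) at 24 hrs after 10 days. At 1.5 wks the Ctrl mice averaged 1.99 ± 1.01 (SD, n = 4) and the AggE mice 2.45 ± 0.89 (SD, n = 5). The other AggE means were 4.02 ± 0.14 (SD, n = 5) and 4.11 ± 0.18 (SD, n = 5) at 24 hrs after 5 and 10 days and 3.37 ± 0.59 (SD, n = 6) at 4 wks. Among Ctrl mice only the mean at 1.5 wks lay apart from the next by more than the SDs, whereas among AggE mice the SDs of 1.5 and 4 wks overlapped. The time points were not tested against each other, and few of their mice shared a slide. On slide 8 Clec4f was 2.30 in Ctrl mouse 4 of 1.5 wks against 3.71 to 3.85 in Ctrl mice 1 to 3 of 4 wks. On slide 6 it was 1.65 to 2.83 in AggE mice 1, 3 and 4 of 1.5 wks against 4.13 in AggE mouse 5 of 24 hrs after 5 days. On slide 11 AggE mouse 2 of 1.5 wks, at 3.70, was almost level with AggE mouse 6 of 4 wks, at 3.73. Cd5l, the secreted apoptosis inhibitor of macrophages, ran from 4.89 ± 0.35 (SD, n = 4) in Ctrl mice at 24 hrs after 5 days down to 3.03 ± 1.41 (SD, n = 4) at 1.5 wks, and in AggE mice from 5.06 ± 0.32 (SD, n = 5) down to 3.48 ± 0.49 (SD, n = 6) at 4 wks. The low Clec4f level at 1.5 wks was also present in the Cy5 part of the normalized ratio, which is not free of Cy3. There the mean log2 signal of Clec4f was 8.15 in Ctrl mice at 1.5 wks. It was 10.18, 9.79 and 10.33 in Ctrl mice at 24 hrs after 5 days, 24 hrs after 10 days and 4 wks. Lyz2 is the lysozyme of myeloid cells, and its probes may also bind its near copy Lyz1. It was at -0.71 ± 0.36 (SD, n = 4) in Ctrl mice at 1.5 wks and between 0.024 and 0.22 on average in the other Ctrl groups. Marco, Vsig4, Timd4, Csf1r and Mrc1, like Clec4f and Lyz2, had their lowest means at 1.5 wks in both Ctrl and AggE mice. The median share of probes well above background was 22% in Ctrl and 21.9% in AggE mice at 1.5 wks. It was 22.2% in AggE mice at 24 hrs after 5 days, and 51.2% and 52.8% in Ctrl and AggE mice at 4 wks. Markers of some other liver cells also had lower means over their lists in Ctrl mice at 1.5 wks than at 24 hrs after 5 days, without overlap. The ranges were 0.37 to 0.86 against 1.00 to 1.25 for sinusoidal endothelium, 4.70 to 5.28 against 5.63 to 5.68 for hepatocytes, and -0.40 to -0.26 against -0.0015 to 0.17 for stellate cells. The hepatocyte range overlapped with that of Ctrl mice at 24 hrs after 10 days, 5.22 to 5.46. Lists of recruited monocytes, lymphocytes and dendritic cells instead had higher means at 1.5 wks than at 24 hrs after 5 days. They were -1.31 against -1.54, -0.19 against -0.27 and 0.022 against -0.017, with overlapping ranges, and the neutrophil list was almost level. The part of these cells in the result was not tested.

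At 24 hrs after 5 days the question was whether liver macrophage transcripts differ right after the shorter regimen. Marco, the scavenger receptor that binds bacteria and particles, was higher in AggE mice, and it was the only member at an unadjusted p of 0.05 or less, 1 of 9, where 17.5% of all probes were. No member passed by its main probe after Benjamini-Hochberg adjustment in limma, 0 of 9, against 3.25% of all probes. The Marco levels were 2.75, 0.74, 1.56 and 3.41 in the 4 Ctrl mice and 3.47, 3.59, 2.80, 3.22 and 3.51 in the 5 AggE mice. All AggE mice lay in the upper range, and Ctrl mouse 4 overlapped with them. The difference was 1.20 ± 0.43 (SE) on the log2 scale, 2.30-fold, with an adjusted p of 0.116 in limma. Without Ctrl mouse 2, which had the lowest level, it was 0.74, with an unadjusted p of 0.0928 in limma. On Cy5 alone it was 0.91, with an adjusted p of 0.0182 in limma, and with no normalization between arrays it was 0.50, with an unadjusted p of 0.424 in limma. The reference signal of Marco, Cy3, was well above background in 2 of these 4 Ctrl and 0 of these 5 AggE mice.

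None of the other 8 members was at that limit at 24 hrs after 5 days. Lyz2 levels were 0.046, -0.041, 0.18 and -0.087 in Ctrl mice and 0.23, 0.21, 0.24, 0.37 and 0.15 in AggE mice. The groups overlapped only between Ctrl mouse 3 and AggE mouse 5, and the difference of 0.21 (interval -0.13 to 0.56) exceeded the SDs of both groups, 0.12 and 0.079. With only the 9 mice of this comparison in the fit its unadjusted p was 0.0144 in limma. Vsig4, the complement receptor of resident macrophages, was the next in size, at 0.31 with a 95% interval of -0.045 to 0.66. Cd5l differed by 0.17 (interval -0.64 to 0.98), Clec4f by -0.16 (-0.93 to 0.60), and Csf1r, the receptor for CSF1 and IL34, by 0.012 (-0.21 to 0.23). Of the 9 members 8 had a difference above 0, with a median of 0.17, where the median of all probes was 0.0028, but 4 of 9 were above 0 with an offset of 0 (median -0.24), on the series table (median -0.25) and without normalization between arrays (median -0.032). Timd4, a receptor for phosphatidylserine on dying cells, was not well above background in any mouse of either group. The second probe of Lyz2 was lower in every AggE mouse than in every Ctrl mouse, with an adjusted p of 0.0054 in limma, but it did not clear background in either group, so no fold is given, and the main Lyz2 probe, bright in all of them, differed in the other direction.

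**Figure D2:**
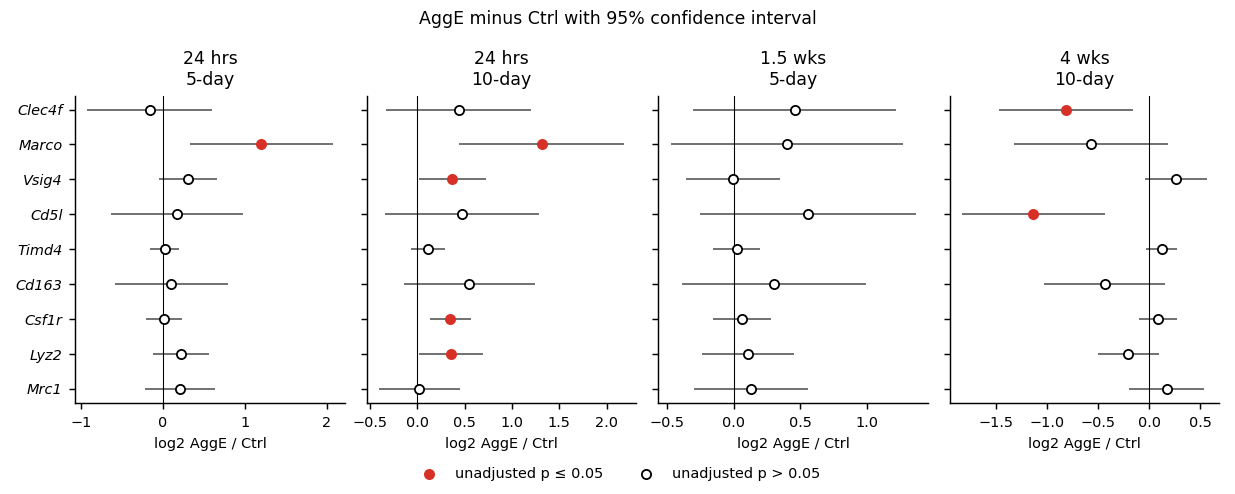
Difference between AggE and Ctrl mice on the log2 scale (x axis, 95% confidence interval from limma) for each member (y axis) in the 4 comparisons; filled points have an unadjusted p of 0.05 or less. Filled points are Marco at both 24-hr time points, Vsig4, Csf1r and Lyz2 at 24 hrs after 10 days, and Clec4f and Cd5l, both below 0, at 4 wks after 10 days.

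At 24 hrs after 10 days all 9 members had a higher mean in AggE mice, with a median difference of 0.37 where the median of all probes was -0.0033. Without normalization between arrays 6 of 9 were higher, with a median of 0.12. Marco, Vsig4, Csf1r and Lyz2 were at an unadjusted p of 0.05 or less, 4 of 9 members, where 2.81% of all probes were. None of the 9 passed after adjustment in limma, where 0.0734% of all probes did. In 2 of 9 members, Marco and Vsig4, every AggE mouse lay above every Ctrl mouse, as was the case for 0.985% of probes measured in all these mice. The AggE and Ctrl mice lay on different slides, and when the slide was taken as a random block, 0 of 9 members were at an unadjusted p of 0.05 or less.

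Marco levels were 2.03, 0.82, 0.53 and 1.99 in the 4 Ctrl mice and 2.42, 3.10, 2.74, 2.33 and 2.68 in the 5 AggE mice. The lowest AggE mouse lay above the highest Ctrl mouse. The difference was 1.31 ± 0.43 (SE), 2.48-fold, with an unadjusted p of 0.0044 and an adjusted p of 1 in limma. It was at or below an unadjusted p of 0.05 without each of the 9 mice in turn, and in 10 of 15 other ways of processing. It was 1.32 with the slide as a random block, 0.87 on the processed signals, 0.87 without normalization between arrays and 0.92 on the series table, at unadjusted p-values of 0.0506, 0.103, 0.165 and 0.0574 in limma, and 0.78 on Cy5 alone with a p of 0.0015.

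Vsig4 levels were 0.70, 0.34, 0.54 and 0.69 in Ctrl mice and 0.71, 0.74, 0.85, 0.92 and 1.45 in AggE mice. The groups did not overlap, but the highest Ctrl and the lowest AggE mouse were almost level, and AggE mouse 5 stood above the rest. The difference was 0.37 ± 0.17 (SE), with an unadjusted p of 0.0426 in limma, and it was 0.24 with an unadjusted p of 0.177 without AggE mouse 5. The call also ended when Ctrl mouse 2, Ctrl mouse 3 or AggE mouse 4 was left out, at unadjusted p-values of 0.136, 0.0709 and 0.0555 in limma. On Cy5 alone the difference was 0.14 with a p of 0.0839, on the processed signals 0.52 with a p of 0.244, and without normalization between arrays 0.12 with a p of 0.646 in limma.

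Csf1r levels were 0.43, -0.023, 0.13 and 0.12 in Ctrl mice and 0.43, 0.57, 0.59, 0.78 and 0.19 in AggE mice. Ctrl mouse 1 lay among the AggE mice and AggE mouse 5 among the Ctrl mice. The difference was 0.35 ± 0.11 (SE), with an unadjusted p of 0.0026 and an adjusted p of 0.851 in limma. The other 2 Csf1r probes, dimmer and well above background in 2 to 4 of the 5 AggE mice, differed by 0.036 and -0.020, and the mean over the 3 probes by 0.12 with an unadjusted p of 0.0906. With weights for the quality of each array, the difference was 0.46 with an adjusted p of 0.0021 in limma, the 1 alternative in which a member passed at this time point.

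Lyz2 levels were 0.19, 0.59, 0.17 and -0.095 in Ctrl mice and 0.72, 0.45, 0.74, 0.38 and 0.57 in AggE mice. Ctrl mouse 2 lay among the AggE mice. The difference was 0.35 ± 0.17 (SE), with an unadjusted p of 0.0426 in limma, and without Ctrl mouse 4 it was 0.25 with a p of 0.173. It was also above 0.05 without Ctrl mouse 1, Ctrl mouse 3, AggE mouse 1, AggE mouse 3 or AggE mouse 5, at p-values from 0.0567 to 0.0889. On Cy5 alone the Lyz2 difference was 0.41 with a p of 0.0613, and on the processed signals 0.36 with a p of 0.107 in limma. The scavenger receptor for hemoglobin, Cd163, differed by 0.55 (interval -0.15 to 1.24), Cd5l by 0.47 (-0.34 to 1.28), Clec4f by 0.43 (-0.33 to 1.20), and Mrc1, the mannose receptor, by 0.020 (-0.41 to 0.45). None of these 4 was at an unadjusted p of 0.05 or less, although the Cd163 difference exceeded the SDs of both groups, 0.40 and 0.48. With array weights Cd163 had a p of 0.0086, and with only the 9 mice of this comparison in the fit Cd5l had a p of 0.0393 in limma.

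At 1.5 wks after 5 days the members were read as a test of whether differences outlast the 5-day regimen. None of the 9 members was at an unadjusted p of 0.05 or less, where 2.42% of all probes were, and 0 passed after adjustment in limma, as did 0% of all probes. Clec4f levels were 1.20, 3.29, 1.18 and 2.30 in Ctrl mice and 1.65, 3.70, 2.83, 2.52 and 1.54 in AggE mice, so that the groups overlapped over most of their range. Cd5l levels were 2.00, 4.88, 1.88 and 3.37 in Ctrl mice and 3.69, 4.41, 3.91, 3.44 and 2.49 in AggE mice. In both genes Ctrl mouse 2 and AggE mouse 2 were the highest of their groups. The differences were 0.46 (interval -0.31 to 1.22) for Clec4f, 0.55 (-0.26 to 1.37) for Cd5l and 0.40 (-0.47 to 1.27) for Marco, and the difference of 1.20 seen for Marco at 24 hrs after 5 days lies inside the Marco interval. Without Ctrl mouse 2 the difference was 1.17 for Cd5l and 0.89 for Clec4f, at unadjusted p-values of 0.0019 and 0.0216 in limma. With slide as a fixed block it was -0.27 for Cd5l and -0.31 for Clec4f, at p-values of 0.647 and 0.549. On slide 7, which held both groups, the 1 AggE mouse lay within the range of the 3 Ctrl mice in 7 of 9 members.

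At 4 wks after 10 days Cd5l and Clec4f were lower in AggE mice, 2 of 9 members at an unadjusted p of 0.05 or less, where 20.4% of all probes were. After adjustment in limma 0 of 9 members passed, against 3.42% of all probes. Cd5l levels were 4.28, 3.97, 4.49, 4.62, 5.13 and 5.16 in the 6 Ctrl mice and 3.48, 2.69, 3.35, 3.60, 4.23 and 3.53 in the 6 AggE mice. Of the AggE mice, 5 lay below every Ctrl mouse, and AggE mouse 5 lay above the lowest Ctrl mouse. The difference was -1.13 ± 0.34 (SE), a 2.19-fold lower level, with an adjusted p of 0.0582 in limma. Clec4f levels were 3.73, 3.71, 3.85, 4.38, 4.58 and 4.83 in Ctrl mice and 3.01, 2.52, 3.13, 3.71, 4.14 and 3.73 in AggE mice. The groups overlapped, and 3 AggE mice lay below every Ctrl mouse. The difference was -0.81 ± 0.32 (SE), 1.75-fold, with an adjusted p of 0.144 in limma.

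These 2 differences moved with the slides of the Ctrl mice and with the processing. Ctrl mice 1 to 3 lay on slide 8 and Ctrl mice 4 to 6 on slide 9, and in 5 of 9 members, Clec4f, Marco, Cd5l, Lyz2 and Mrc1, all mice of slide 9 were above all mice of slide 8, by 0.84 for Clec4f and 0.72 for Cd5l, where 8.89% of all probes were higher on slide 9 without overlap. On slide 9 itself AggE mouse 1 lay below all 3 Ctrl mice in Clec4f, by 1.59 from their mean level of 4.60 to its own level of 3.01, and in Cd5l, from 4.97 to 3.48. With slide as a fixed block the differences were -1.64 for each of Clec4f and Cd5l, at unadjusted p-values of 0.0032 and 0.0092 in limma. Such a fit at 4 wks rests on that 1 AggE mouse, on the only slide with both groups, and on links through mice of 1.5 wks. Without the Ctrl mice of slide 9 they were -0.39 for Clec4f, with a p of 0.324, and -0.77 for Cd5l, with a p of 0.0785. Without the Ctrl mice of slide 8 they were -1.23 for Clec4f and -1.49 for Cd5l, and the adjusted p for Cd5l was 0.029 in limma. Other members moved with these slides too. Without the Ctrl mice of slide 8 the differences were -0.52 for Lyz2, with an adjusted p of 0.0384, and -1.01 for Marco and -0.76 for Cd163, with unadjusted p-values of 0.0331 and 0.0401 in limma. Without those of slide 9 they were 0.12 for Lyz2, with a p of 0.46, 0.48 for Vsig4 and 0.49 for Mrc1, with p-values of 0.0116 and 0.0164 in limma.

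For Clec4f the processed signals of the scanner software gave a difference of 0.066 and the ratios of the series table one of 0.15, both opposite in sign to the main value and with unadjusted p-values of 0.849 and 0.689 in limma, while Cy5 alone gave -0.32 with a p of 0.068. It also lost the limit without AggE mouse 2, at a p of 0.061, and without Ctrl mouse 6, at 0.0512. For Cd5l the difference was -0.66 on the processed signals and -0.64 on the series table, with p-values of 0.2 and 0.195 in limma, and -0.51 on Cy5 alone with a p of 0.0372. Its sign was the same under all 16 other ways of processing and without each of the 12 mice in turn.

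**Figure D3:**
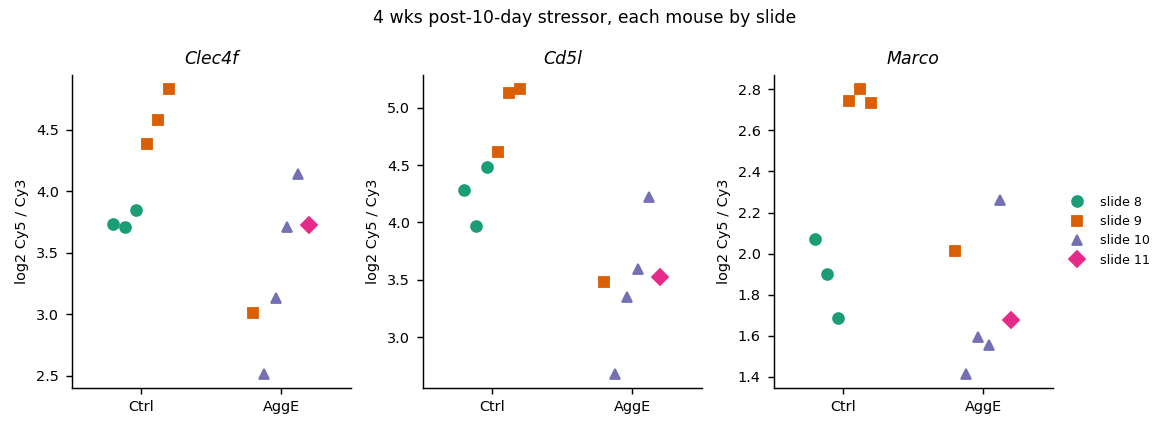
Log2 ratio (y axis) of Clec4f, Cd5l and Marco in each Ctrl and AggE mouse at 4 wks after 10 days (x axis), with colour and shape for the slide. The 3 Ctrl mice of slide 9 lie above the 3 of slide 8 in each gene, and AggE mouse 1, also on slide 9, lies below all 3 Ctrl mice of its slide.

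**Figure D4:**
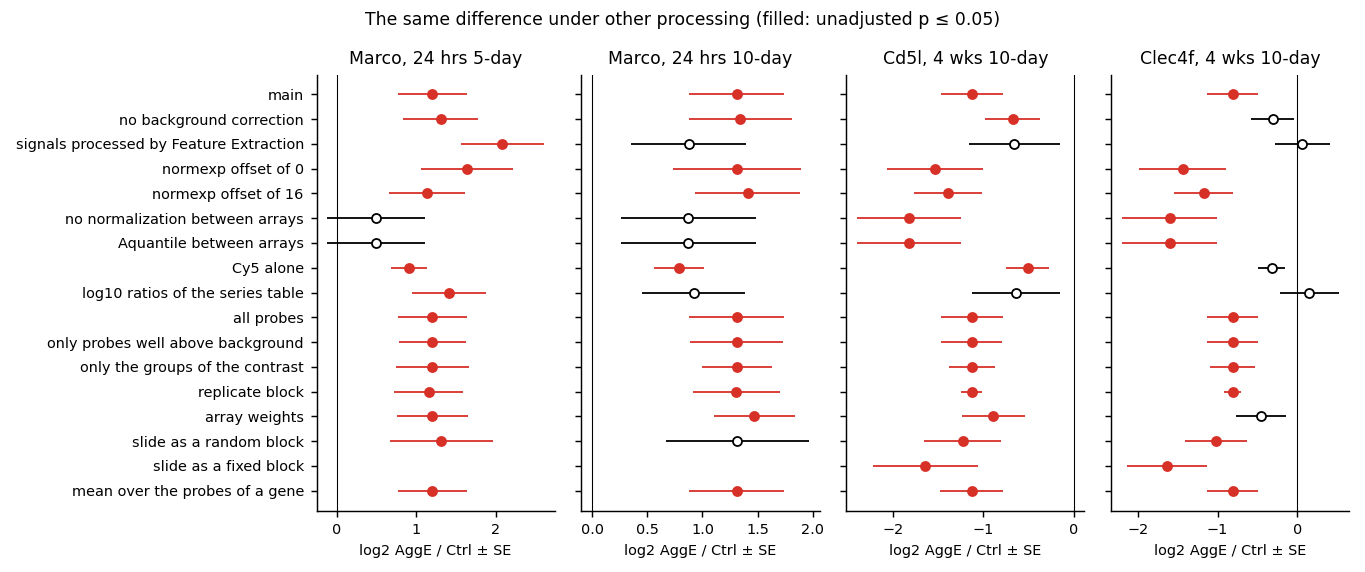
Difference between AggE and Ctrl mice on the log2 scale ± SE (x axis) for the 4 largest differences among members, recomputed under each processing (y axis); filled points have an unadjusted p of 0.05 or less, and the slide cannot be a fixed block at 24 hrs. Marco is above 0 and Cd5l below 0 throughout, and Clec4f at 4 wks ranges from -1.64 to 0.15.

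Over all members 4 of 9 were higher and 5 of 9 lower at 4 wks, with a median of -0.20 where the median of all probes was 0.011. With an offset of 0 and without normalization between arrays 1 of 9 was higher, with medians of -0.44 and -0.59, whereas 5 of 9 were higher on the processed signals and on the series table, with medians of 0.066 and 0.15. Marco levels were 2.07, 1.90, 1.69, 2.74, 2.80 and 2.74 in Ctrl mice and 2.01, 1.42, 1.60, 1.56, 2.26 and 1.68 in AggE mice, a difference of -0.57 (interval -1.32 to 0.18) with overlapping groups. Without normalization between arrays it was -1.30, with an unadjusted p of 0.0197 in limma. Lyz2 differed by -0.20 (-0.50 to 0.093), and Cd163 by -0.44 (-1.03 to 0.16), with a p of 0.147 in limma. The Cd163 difference ranged from -1.38 to -0.31 over 16 other ways of processing, and 5 of them brought it to the unadjusted limit of 0.05. On Cy5 alone it was -0.36 with an unadjusted p of 0.0045, with an offset of 0 it was -1.19 with a p of 0.0164, and without normalization between arrays it was -1.38 with an adjusted p of 0.0441 in limma. Vsig4 differed by 0.26 (-0.041 to 0.57), and by 0.44 with slide as a fixed block, with a p of 0.0415 in limma. Mrc1 differed by 0.17 (-0.19 to 0.54), but by -0.59 without normalization between arrays and by 0.54 with slide as a fixed block, with p-values of 0.043 and 0.0346 in limma.

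The change between time points was tested as a difference of differences. The AggE minus Ctrl difference at 24 hrs after 10 days exceeded that at 4 wks by 1.88 ± 0.57 (SE) for Marco, 1.60 ± 0.53 (SE) for Cd5l, 1.24 ± 0.50 (SE) for Clec4f, 0.98 ± 0.45 (SE) for Cd163 and 0.56 ± 0.22 (SE) for Lyz2. These 5 of 9 members were at an unadjusted p of 0.05 or less, where 8.82% of all probes were, and 0 passed after adjustment in limma, where 0.054% did. The adjusted p-values of Marco, Cd5l and Clec4f were 0.374, 0.416 and 0.492 in limma. Over 15 other ways of processing Marco was at the unadjusted limit in 15, Cd163 in 12, Cd5l in 11, Lyz2 in 9 and Clec4f in 8. The Clec4f value was 0.21 on the processed signals and -0.015 on the series table, with p-values of 0.698 and 0.979, and that of Cd5l was 1.14 and 1.13, with p-values of 0.148 and 0.137 in limma. On Cy5 alone Lyz2 had a p of 0.0567. Without the Ctrl mice of slide 9 at 4 wks, 3 of 9 members were at that limit. Leaving out 1 mouse ended the call for Clec4f (without Ctrl mouse 2 at 24 hrs, p of 0.0607) and for Lyz2 (without Ctrl mouse 4 at 24 hrs, p of 0.0573), and for Cd163 it did so in 6 of 21 cases, which are Ctrl mice 2 and 3 and AggE mouse 3 at 24 hrs, and AggE mouse 4 and Ctrl mice 4 and 5 at 4 wks.

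Between the regimens at 24 hrs, only Csf1r was at an unadjusted p of 0.05 or less, 1 of 9, where 6.78% of all probes were, with a difference of -0.34 ± 0.15 (SE). It stayed at that limit in 9 of 18 fits without 1 mouse and in 4 of 15 other ways of processing, with p-values up to 0.527 in limma. None of the 9 passed after adjustment in limma, against 0.027% of all probes. For Marco the 5-day minus 10-day difference was -0.11 (interval -1.34 to 1.12). Between 24 hrs and 1.5 wks of the 5-day regimen 0 of 9 members were at the limit, where 7.74% of all probes were, and 0 passed after adjustment in limma, against 0.0695%. Marco differed there by 0.80 (-0.43 to 2.04).

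Members also varied together between mice of a group. Clec4f and Cd5l had a Pearson correlation of 0.88 over 39 mice after each group mean was subtracted, and 0.86 over the 30 mice without those of 1.5 wks, and on Cy5 alone it was 0.90 in each case. Of the 36 pairs of members 32 had a correlation above 0, with a median of 0.30 and a range from -0.21 to 0.88. Other close pairs were Cd163 with Mrc1 at 0.71, Vsig4 with Timd4 at 0.70 and Vsig4 with Mrc1 at 0.69, while Csf1r was at 0.19 or less with every other member. Among 8701 genes well above background on enough arrays, the 5 most like Clec4f by this measure included Cd5l, Cmtm8 at 0.87, Masp1 at 0.83 and Ptprb at 0.82. The points share slides, labelling and the dim Cy3 signal of some probes, so these values are a description only.

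**Figure D5:**
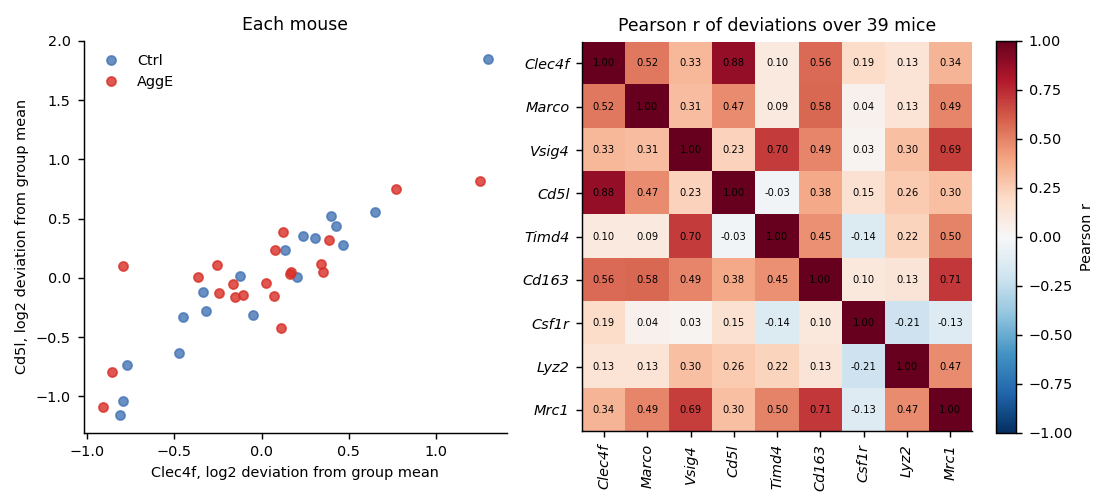
Left, deviation of Cd5l (y axis) against that of Clec4f (x axis) from the group mean on the log2 scale, 1 point per mouse, Ctrl in blue and AggE in red. Right, Pearson correlation of these deviations between the 9 members over 39 mice, where Clec4f and Cd5l reach 0.88 and Csf1r stays at 0.19 or less with each of the others.

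The other genes of resident macrophages were read from a list of 18. At 24 hrs after 10 days 15 of 18 lay higher in AggE mice, at a median of 0.14, where the median of all probes was -0.0033, and 4 of 18 were at an unadjusted p of 0.05 or less, where 2.81% of all probes were. These were Ctss, a lysosomal protease, by 0.41 with every AggE mouse above every Ctrl mouse, Folr2, a folate receptor, by 0.69, Tyrobp, a signalling adaptor, by 0.30, and Fcgr1, the high affinity IgG receptor, by 0.28. None passed after adjustment in limma. The mean over the 18 genes ran from 0.051 to 0.24 in Ctrl mice and from 0.27 to 0.36 in AggE mice, and the mean over the 9 members from 1.06 to 1.65 and from 1.68 to 1.97, both without overlap. The nearest member means, 1.65 and 1.68, were almost level, and Marco had the largest difference of the 9, at 1.31. Ctrl and AggE mice shared no slide there, and the share of other gene sets without overlap was not computed. Other lists also lay mostly higher, with 8 of 9 neutrophil markers (8 of which did not clear background in either group), 11 of 15 genes of recruited monocytes, 5 of 7 stellate cell markers and 7 of 10 lymphocyte markers. Of the sinusoidal endothelial markers 5 of 10 were higher and of the hepatocyte markers 4 of 8. The means over each of these lists overlapped between the groups, as in sinusoidal endothelium, at 1.13 to 1.43 in Ctrl and 1.19 to 1.63 in AggE mice.

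At 4 wks 13 of these 18 genes were lower in AggE mice, with a median of -0.10 where the median of all probes was 0.011. After adjustment in limma 2 of 18 were lower, where 3.42% of all probes passed in either direction. Fcgr1 levels ran from -0.098 to 0.17 in Ctrl mice, median 0.094, and from -0.45 to -0.19 in AggE mice, median -0.31, without overlap. The difference was -0.37 ± 0.074 (SE), with an adjusted p of 0.0091 in limma. With slide as a random block the adjusted p was 0.0605, on the processed signals 0.0759 and on Cy5 alone 0.252 in limma. Slc40a1, the iron exporter ferroportin, ran from 3.04 to 3.69 in Ctrl mice and from 2.14 to 3.10 in AggE mice, with AggE mouse 1 above the lowest Ctrl mice. The difference was -0.80 ± 0.21 (SE), with an adjusted p of 0.0303 in limma, and it was -0.53 with an unadjusted p of 0.174 with slide as a fixed block. On Cy5 alone it was -0.42, with an adjusted p of 0.576, and the adjusted p was 0.222 with a random slide block and 0.163 on the processed signals in limma. At an unadjusted p of 0.05 or less 5 of 18 genes were lower, among them Cfp, Axl and Msr1, and 2 were higher, Mertk by 0.26 and Folr2 by 0.39, where 20.4% of all probes were at that limit. The Fcgr1 differences at 24 hrs and 4 wks of the 10-day regimen were opposite in sign, and they differed by 0.65, with an adjusted p of 0.0089 in limma. That p was 0.596 with slide as a random block, 0.299 on Cy5 alone and 0.89 with an offset of 0. Fcgr1 was the 1 gene of all the lists read here for which that difference passed.

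Of the 10 growth and transcription factors of macrophages, 0 passed after adjustment in limma in any comparison, where at most 3.42% of all probes did. Of these genes 7 of 10 were lower in AggE mice at 24 hrs after 5 days, with a median of -0.17, and Il34, a ligand of the CSF1 receptor, and Spic were at an unadjusted p of 0.05 or less, 2 of 10 where 17.5% of all probes were. Both were dim there, well above background in 1 of 5 and 0 of 5 AggE mice. Spic, which drives the red pulp and Kupffer cell program of iron handling, differed by -0.34 at 4 wks, with an adjusted p of 0.0556 in limma, and Nr1h3 and Id3 were well above background on 39 arrays, whereas Spi1 was on 0.

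Among 15 measured genes of recruited monocytes and inflammatory macrophages, Spp1 had a higher mean in AggE mice at both 24-hr time points. Its mean was lower in AggE mice at 1.5 wks, at -5.50 against -5.42, and at 4 wks, at -5.75 against -5.34, with overlapping groups. Spp1 encodes osteopontin, which is also made by bile duct cells. Its levels at 24 hrs after 5 days were -5.63, -5.26, -5.68 and -5.31 in Ctrl mice and -4.03, -4.18, -3.62, -3.63 and -5.42 in AggE mice. AggE mouse 5, which lay on another slide than the other AggE mice, was within the Ctrl range. The difference was 1.29 ± 0.24 (SE), with an adjusted p of 0.0033 in limma. With slide as a random block it was 1.04, with an adjusted p of 0.386, and with no normalization between arrays 1.57, with an adjusted p of 0.0905 in limma. At 24 hrs after 10 days it was 1.03 ± 0.24 (SE), with every AggE mouse above every Ctrl mouse, an unadjusted p of 0.00016 and an adjusted p of 0.155 in limma. It passed adjustment in 6 of 15 other ways of processing, among them Cy5 alone at 1.16 (adjusted p of 0.0055), the processed signals at 1.70 (0.0152) and the series table at 1.76 (0.0173), whereas with slide as a random block the adjusted p was 1 in limma. The defining monocyte gene Ccr2 also passed at 24 hrs after 5 days, but did not exceed background clearly in any mouse of the pair of groups, as was the case for 10 of the 15 genes, so no fold is given. Ly6c1 was the 1 gene of this list that was lower at the unadjusted limit there, and it did not clear background either. At 4 wks 9 of 15 were lower, and Gpnmb (-0.76), Trem2 (-0.36), Ccl3 (-0.30) and Plac8 (-0.23) were at an unadjusted p of 0.05 or less, 4 of 15 where 20.4% of all probes were, with none past the adjusted limit in limma.

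Of the markers of other cells, Itgax, a dendritic cell gene, passed at 24 hrs after 5 days, when 3.25% of all probes did, without clearing background in either group. At 4 wks, when 3.42% of all probes passed, Cd4 and Ass1 did. Cd4, a gene of T cells that Kupffer cells can also transcribe, was 0.19 ± 0.053 (SE) higher in AggE mice, with every AggE mouse above every Ctrl mouse and an adjusted p of 0.0395 in limma. It was 0.018 on Cy5 alone and -0.0025 without normalization between arrays, with unadjusted p-values of 0.64 and 0.976 in limma. With slide as a random block the Cd4 difference was 0.16, with an adjusted p of 0.238 in limma. With slide as a fixed block it was 0.081, with an unadjusted p of 0.253 in limma. The hepatocyte gene Ass1, of the urea cycle, was 1.25 ± 0.36 (SE) higher, with an adjusted p of 0.0449 in limma. The groups overlapped, with Ctrl mouse 2 at 4.34 among the AggE mice. On slide 9, AggE mouse 1 at 1.94 lay within the Ctrl mice at 1.42 to 2.16, and with slide as a fixed block the difference was 0.24, with an unadjusted p of 0.65 in limma. With slide as a random block it was 0.85, with an adjusted p of 0.326, and without the Ctrl mice of slide 9 it was 0.71, with an unadjusted p of 0.101 in limma. At 4 wks 7 of 8 hepatocyte markers were lower, with a median of -0.31, and their mean ran from 5.14 to 5.67 in Ctrl and from 4.46 to 5.71 in AggE mice. Fabp1, which binds fatty acids in hepatocytes, differed by -0.98, and the B cell genes Cd79b and Ms4a1 by -0.33 and -0.38, each within the unadjusted limit. Of the lymphocyte markers 4 of 10 were at that limit, Cd4 and Cd8a higher and these 2 B cell genes lower. Over all 39 arrays Cd8a was well above background on only 1, Cd4 on 19, Cd79b on 23 and Ms4a1 on 14. Of the sinusoidal endothelial markers 4 of 10 were lower, with Clec4g at -0.75 and Fcgr2b at -0.22 at an unadjusted p of 0.05 or less, 2 of 10. Of 7 stellate cell markers 4 were lower at 4 wks, with Pdgfrb at -0.23 at that limit, 1 of 7. The share of all probes at that limit was 20.4%, so the endothelial and stellate counts are near or below the background. The lymphocyte count is above it, but it mixes directions and takes in the dim Cd8a. The part of these cells in the Clec4f and Cd5l differences was not tested.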

How the data were processed

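Liver RNA of 39 mice was hybridized against a common reference RNA on 2-colour Agilent arrays. The authors deposited scanner intensity values made with Feature Extraction 11.5.1.1 per the file headers, and a series table of log10 ratios of Cy5 over Cy3. Here the median intensities were background corrected (normexp, offset 50), loess and then quantile normalized and expressed as log2 ratios, computed from the deposited intensities. Control spots and outlier spots (0.295% to 1.46% an array) were left out, and the spots of 245 probes were averaged. Differences were tested with limma 3.58.1 in R 4.3.3 over 8 group means, with Benjamini-Hochberg adjustment over 25903 RefSeq probes at 0.05, after a check on simulated data. Groups came from the labels, which describe the samples only as separate mice, and the main p-values take these mice as independent. The consensus correlation within slides was 0.32, so mice on a shared slide were not independent, and the main fit had no slide term. Where Ctrl and AggE mice shared no slide, the main p-values cannot separate a difference between groups from one between slides. All members are named, with list genes past the adjusted limit, those past the unadjusted limit where a count of 5 or fewer is given, and the 5 genes most like Clec4f, of which 1 is not reported here. Members and lists were chosen with earlier results of these data known. Alternatives covered signals, offsets, normalization, filters, weights, slides and each mouse left out. The alternatives that leave out the Ctrl mice of slide 8 or 9 were chosen after seeing the data. RefSeq promoters were of build GRCm38.p6.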

Additional observations from a re-analysis of the deposited data

Results flagged for a closer look

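Vsig4 in AggE mouse 5 at 24 hrs after 10 days was 1.45, away from the other 4 AggE mice at 0.71 to 0.92, and this mouse was alone on slide 3. Vsig4 in AggE mouse 2 at 1.5 wks was 0.45, away from the others at 0.11 to 0.20. Each stood out by its gap to the nearest mouse relative to the range of the group, which chance gives in about 1 of 20 groups. These were 2 of 72 groups of values.

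The AggE minus Ctrl difference of Fcgr1 at 24 hrs after 10 days exceeded that at 4 wks by 0.65, with an adjusted p of 0.0089 in limma. The adjusted p ranged from 0.00033 with array weights to 0.89 with an offset of 0, and it was 0.596 with slide as a random block and 0.299 on Cy5 alone.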

How the results depend on the processing

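Counts are of 9 members at an unadjusted p of 0.05 or less unless called adjusted, and causes were not tested. At 24 hrs after 5 days (1) the count was 3 on processed signals, 2 on the series table and with only the groups compared, and 0 without between-array normalization or with Aquantile, and the adjusted count (0) was 1 on processed signals and on Cy5 alone. At 24 hrs after 10 days (4) it was 2 without background correction, with offset 0, on Cy5 alone and with probe means, 1 on processed signals, on the series table, without between-array normalization and with Aquantile, and 0 with slide as a random block, and the adjusted count (0) was 1 with array weights. At 1.5 wks (0) it was 1 without background correction. At 4 wks (2) it was 0 on processed signals and the series table, 1 without background correction and with array weights, 4 with offsets 0 and 16 and slide as a fixed block, and 5 without between-array normalization, with Aquantile and without the Ctrl mice of slide 8. The adjusted count (0) there was 2 in these last 3 and 1 with only bright probes. For 5-day minus 10-day at 24 hrs (1) it was 0 without background correction, on processed signals, with offsets 0 and 16, without between-array normalization, with Aquantile, with a random slide block and with probe means. For 24 hrs minus 1.5 wks (0) it was 1 without background correction, with offsets 0 and 16 and on the series table. For 24 hrs minus 4 wks (5) it was 1 on processed signals and the series table, and 3 with offset 0, without between-array normalization, with Aquantile, with a random slide block and without the Ctrl mice of slide 9. The sign changed in 118 of 956 values under other processing. In 6 of these the value before or after was past the unadjusted limit, namely Clec4f at 4 wks (0.066 on processed signals, 0.15 on the series table), Clec4f for 24 hrs minus 4 wks (-0.015 on the series table), Mrc1 at 4 wks (-0.59 without between-array normalization and with Aquantile) and Mrc1 for 24 hrs minus 1.5 wks (-1.59 with offset 0). Beside the members, Cd4 turned at 4 wks (-0.0025 without between-array normalization and with Aquantile) and for 24 hrs minus 4 wks (0.080 on processed signals, 0.017 without between-array normalization and with Aquantile, 0.010 on Cy5 alone). Leaving out each mouse gave counts from 0 to 2 at 24 hrs after 5 days, 2 to 4 at 24 hrs after 10 days, 0 to 2 at 1.5 wks, 1 to 4 at 4 wks, 0 to 1 for 5-day minus 10-day, 0 to 2 for 24 hrs minus 1.5 wks and 3 to 6 for 24 hrs minus 4 wks, with adjusted counts from 0 to 1 at 4 wks and 0 elsewhere. Aquantile changes no ratio within an array, so it equals no between-array normalization by construction.

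Mice of the same number shared only a number, since the pairwise correlations of their deviations ran from -0.45 to 0.50. With the replicate number as a block the counts were 2, 5, 1 and 3 in the 4 comparisons, in the order above, and 0, 1 and 5 for the 3 differences, with 1 adjusted call for 24 hrs minus 4 wks. Dim Cy3 signals limit the ratios of Vsig4, Timd4, Cd163 and Mrc1 throughout, and those of Clec4f, Cd5l and Marco at 24 hrs after 5 days, where Cy3 was well above background in 0, 0 and 2 of the 9 mice, and of Clec4f and Cd5l at 1.5 wks, in 2 of 9 each, and 4 to 6 mice a group limit the precision.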
